A study of Mus musculus with 12 samples.

Results

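The 35 genes described here make proteins that find and mend broken or crosslinked DNA, and they were chosen by name from the 35976 gene symbols counted in each library. Break sensing and checkpoint kinases had 8 members (Mre11a, Rad50, Nbn, Atm, Atr, Topbp1, Chek1 and Chek2), and chromatin adaptors at breaks had 3 (Mdc1, Trp53bp1 and Rif1). Non-homologous end joining had 4 (Xrcc5, Xrcc6, Prkdc and Lig4), and the resection nuclease and helicase had 2 (Exo1 and Blm). The BRCA complexes had 4 (Brca1, Bard1, Palb2 and Brca2), and the recombination accessory genes 5 (Rad51c, Xrcc2, Xrcc3, Rad51ap1 and Rad54l). The Fanconi core complex with its anchor had 7 (Fanca, Fancc, Fance, Fancf, Fancg, Fancl and Fancm), and the pair that this complex modifies had 2 (Fancd2 and Fanci).

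The cells were mouse haematopoietic stem cells (HSCs), which here means a sort for cells that lack lineage markers and carry c-Kit and Sca-1, a gate that also holds multipotent progenitors. The 12 libraries made 6 groups of 2: fresh cells of wild-type (WT) mice aged 2 months, fresh cells of mice of that age labelled as Cd38 knockout (KO), cells of both genotypes at that age after 24 hours of cytokine stimulation in culture, and fresh cells of both genotypes from mice aged 24 months. The product of Cd38 is a cell surface enzyme that breaks down NAD. The design compares the genotypes at rest, on activation and in age. Fresh cells of mice aged 2 and 24 months are called young and old here, and the replicate numbers are those of the sample titles (1 and 2 for WT, 3 and 4 for KO). The labels name no cytokine, strain or sex. They leave unsaid if the 2 libraries of a group are separate mice, so the p-values reflect the spread among these libraries, which may be technical.

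A break in both DNA strands is sensed by the MRE11-RAD50-NBS1 complex, which activates the kinase ATM, while ATR answers to single-stranded DNA at resected ends and stalled forks. The break is then joined directly by the end joining machinery, or its ends are resected and copied from the sister chromatid by homologous recombination, which needs BRCA2 and several accessory proteins and is largely restricted to S and G2 phase. Crosslinks between strands are handled by the Fanconi pathway, whose core complex adds ubiquitin to FANCD2 and FANCI, and inherited loss of that pathway leads to bone marrow failure. Quiescent HSCs are known to rely on end joining more than cycling progenitors do, and many homologous recombination genes are transcribed as cells enter the cycle.

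Promoters of 5 genes are printed because these genes, Rad54l, Brca1, Rad51c, Fancm and Topbp1, were the members whose 4 stimulated libraries all lay above the 4 young fresh ones. The set of RefSeq promoter windows (GRCm38.p6, the assembly also called mm10) held 28 of the 35 members. It gave 250 bases before and 50 after the start site listed first for each gene. It held no entry for Nbn, Exo1, Rif1, Fancd2, Rad50, Prkdc or Xrcc2. The windows were chr4:116123641-116123940 on the minus strand for Rad54l, chr11:101551906-101552205 on the minus strand for Brca1, chr11:87404457-87404756 on the minus strand for Rad51c, chr12:65075353-65075652 on the plus strand for Fancm and chr9:103305077-103305376 on the plus strand for Topbp1. Fancm and Rad51c are annotated as beginning at chr12:65074110 and chr11:87404954, outside their windows, so these windows surround a later start site. The same held for other members, among them Xrcc6 and Brca2. Each window is written 5′ to 3′ on the strand of its gene, and capitals mark a match to either motif searched.
Rad54l: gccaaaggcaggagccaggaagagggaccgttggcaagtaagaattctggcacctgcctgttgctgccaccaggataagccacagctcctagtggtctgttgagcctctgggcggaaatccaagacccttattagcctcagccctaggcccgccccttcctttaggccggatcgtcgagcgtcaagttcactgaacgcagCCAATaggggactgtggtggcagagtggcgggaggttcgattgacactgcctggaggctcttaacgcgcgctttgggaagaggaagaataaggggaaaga
Brca1: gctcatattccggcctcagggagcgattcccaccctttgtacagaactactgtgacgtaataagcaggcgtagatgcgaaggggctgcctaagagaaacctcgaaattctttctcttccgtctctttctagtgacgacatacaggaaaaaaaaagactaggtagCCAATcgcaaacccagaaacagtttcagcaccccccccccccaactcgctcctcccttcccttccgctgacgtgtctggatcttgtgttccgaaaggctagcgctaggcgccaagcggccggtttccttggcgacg
Rad51c: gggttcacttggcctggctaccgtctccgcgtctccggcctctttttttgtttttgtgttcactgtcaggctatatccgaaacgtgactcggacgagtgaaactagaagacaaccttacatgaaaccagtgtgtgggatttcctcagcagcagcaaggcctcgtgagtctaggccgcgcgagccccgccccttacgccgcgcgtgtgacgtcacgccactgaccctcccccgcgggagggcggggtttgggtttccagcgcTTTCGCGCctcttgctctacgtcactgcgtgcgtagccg
Fancm: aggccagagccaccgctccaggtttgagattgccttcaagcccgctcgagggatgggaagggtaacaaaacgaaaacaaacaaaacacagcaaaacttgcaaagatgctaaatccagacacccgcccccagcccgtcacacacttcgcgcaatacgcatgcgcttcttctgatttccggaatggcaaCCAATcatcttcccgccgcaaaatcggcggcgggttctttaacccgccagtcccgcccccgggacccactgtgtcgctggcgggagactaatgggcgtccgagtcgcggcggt
Topbp1: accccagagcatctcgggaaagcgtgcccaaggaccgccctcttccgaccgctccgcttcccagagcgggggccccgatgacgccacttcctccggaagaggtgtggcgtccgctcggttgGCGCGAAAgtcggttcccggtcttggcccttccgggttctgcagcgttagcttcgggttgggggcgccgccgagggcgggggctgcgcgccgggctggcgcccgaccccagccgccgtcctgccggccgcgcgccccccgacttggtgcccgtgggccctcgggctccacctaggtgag
The motifs were CCAAT, the core bound by the factor NF-Y, and 4 strings of the E2F family (TTTCCCGC, TTTCGCGC, TTTGCCGC and TTTGGCGC), each on both strands, and they share no overlap in these windows. An E2F string lay in 8 of the 28 members' windows (28.6%), against 510 of 17492 windows of protein-coding genes (2.92%). The 8 were Bard1, Fancg, Chek2, Brca2, Topbp1, Rad51c, Xrcc6 and Mdc1. In Rad51c it lay 12 to 19 bases after the start, and in Topbp1 122 to 129 bases before it on the reverse strand. CCAAT lay in 17 of the 28 windows (60.7%), against 6827 of 17492 (39%), among them those of Rad54l, Brca1 and Fancm. A match describes the letters alone and is not evidence of binding.

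Total counts were 1600155 to 1963635 in young fresh libraries, 2692245 to 3249721 in stimulated ones and 3796591 to 5164720 in old ones. These ranges do not overlap, so depth cannot be told apart from age or from stimulation. A count of 0 allows a level of up to 1.88 CPM, counts scaled to a common library size, in the shallowest library and 0.619 CPM in the deepest, for counting error only. Cd38 stood at 17.5 and 24.5 CPM in young fresh WT and at 62.6 and 31.9 CPM in young fresh KO. Stimulated cells had 0.996 and 8.57 CPM (WT) and 3.58 and 2.31 CPM (KO), and old cells 74.2 and 41.3 CPM (WT) and 13.2 and 19.8 CPM (KO). The deleted part of the gene is not given, and a 3′ tag can lie outside it, so these counts do not check the genotype, and every statement on KO below is about libraries as labelled. One library stood apart: Xist had 0 counts in young fresh WT 1, where Y-linked genes summed to 199.7 CPM, against 6.61 CPM at most in the other 11. By these genes the libraries of young fresh WT appear to differ in sex. That group is a reference in the stimulation, age and young fresh KO comparisons. The HSC markers Kit (190.2 to 421.9 CPM) and Ly6a, which encodes Sca-1 (39.2 to 176.2 CPM), were counted in all 12 libraries, and Slamf1 and Fgd5 were each at 0 in 1. In bulk libraries, fewer cells of a type and less RNA per cell cannot be told apart.

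The repair genes were counted more evenly in stimulated cells than in fresh cells of either age. All 35 had counts in each of the 4 stimulated libraries, whereas 27 to 32 had counts in the young fresh libraries and 24 to 30 in the old ones. In libraries thinned to 1600155 counts each the ranges were the same. Over all fresh libraries 46 of 280 values of members were 0 (16.4%), close to the 18.5% of the 11548 genes kept in the 12-library fit, and in stimulated libraries 0 of 140 were 0, against 1.79% for those genes. The members with a 0 in some fresh library numbered 15, and the other 20 were above 0 in all 12 libraries.

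The mean log2(CPM + 1) over the 35 genes, which weighs low and high genes alike, was 4.82 and 4.78 after stimulation of WT cells, and 4.82 and 4.73 after that of KO cells. It was 4.01 and 3.91 in young fresh WT and 3.75 and 4.34 in young fresh KO. Old WT had 3.53 and 3.97, and old KO 3.70 and 4.25. All 4 stimulated libraries lay above all 8 fresh ones on this scale. The summed CPM gave another picture, at 1600 to 1770 in stimulated, 1459 to 2041 in young fresh and 1217 to 1623 in old libraries, with the stimulated values inside the young fresh range. A member at 0 lowers the mean log level and hardly moves the sum.

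**Figure D1:**
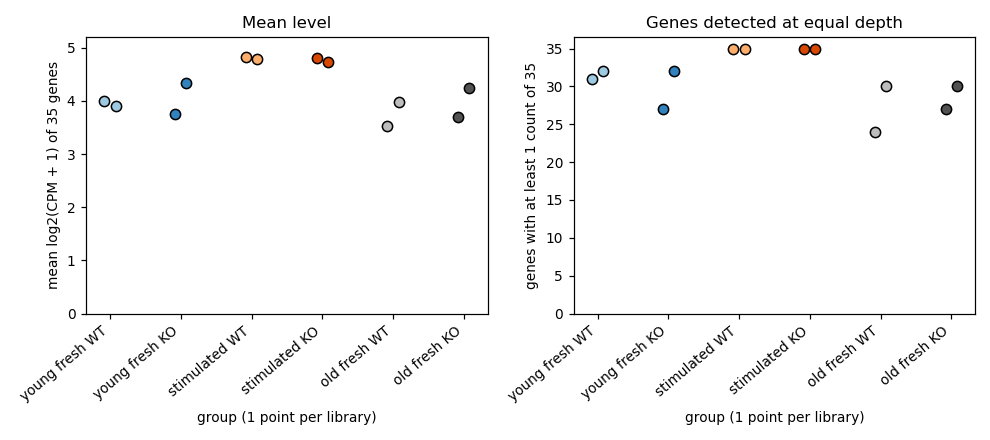
Left, mean log2(CPM + 1) of the 35 repair genes in each library; right, number of the 35 with at least 1 count after thinning every library to 1600155 counts, with 1 point per library and 2 per group. The stimulated libraries sit at 4.73 to 4.82 on the left and at 35 on the right, above every fresh library in both. Genes at large, not drawn here, were also detected more often in stimulated libraries.

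The same even counting showed within groups. Between the 2 stimulated libraries of a genotype the median member differed by 0.23 (WT) and 0.20 (KO) on the log2(CPM + 1) scale, and 3 and 1 members differed over 2-fold. Between young fresh libraries the median difference was 0.71 in WT and 1.44 in KO, and 14 and 22 members differed over 2-fold. Old libraries stood at 0.93 in WT and 0.80 in KO, with 17 and 13 members over 2-fold. The medians over the 11548 genes were 0.29 in both stimulated groups and 0.82 to 0.94 in the fresh ones, so members spread much as other genes did except in young fresh KO, where they spread more.

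Single genes show what that spread was made of. In young fresh KO, Chek1, the kinase that ATR activates to halt the cycle, stood at 4.58 and 137.4 CPM, and Exo1, which resects DNA ends, at 149.7 and 5.75 CPM. Fancg, a core complex subunit, stood there at 0 and 34.5 CPM. In old WT, Fancl, the ubiquitin ligase of the core complex, stood at 0 and 50.6 CPM and Blm, the helicase that dissolves crossed strands, at 0 and 45.8 CPM. Fance, another core subunit, stood at 0 and 30.9 CPM in old WT and at 0 and 29.5 CPM in old KO. Young fresh KO 4 held the highest value of 9 members, more than any other library, and old WT 1 and 2 held the unshared lowest value of 6 and 7. Differences over 8-fold between replicates were seen for 9 members in young fresh KO, 9 in old WT, 3 in old KO, 2 in young fresh WT and 0 in either stimulated group.

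**Figure D2:**
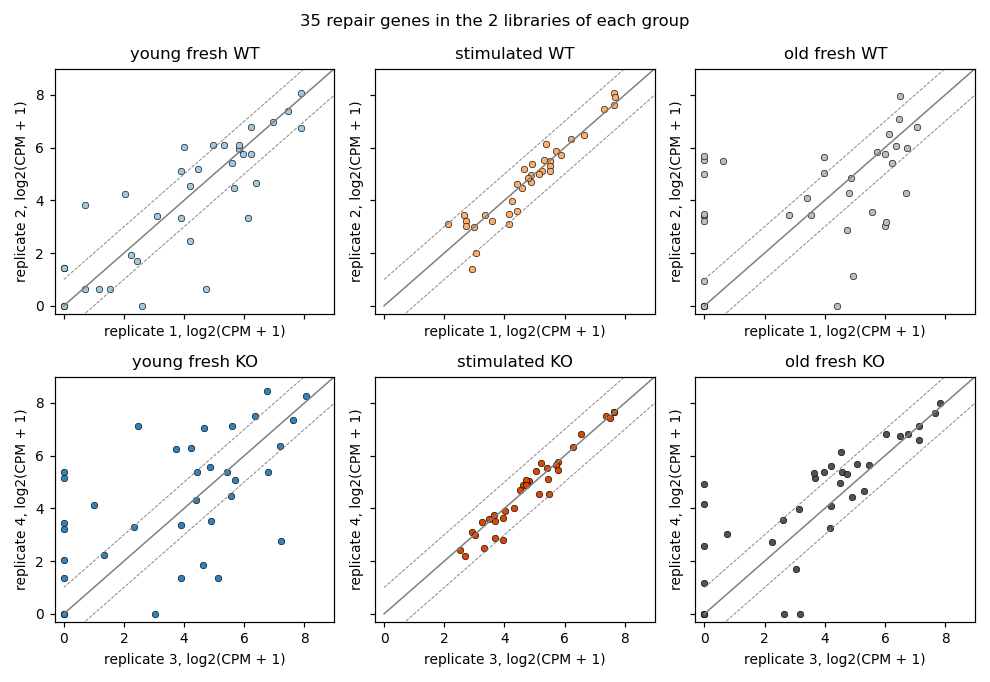
Level of each of the 35 genes in the first replicate (horizontal axis) and the second replicate (vertical axis) of each group, both as log2(CPM + 1), with equality as a solid line and a 2-fold difference as dashed lines. Points hug the solid line in stimulated cells, where 3 and 1 genes lie beyond 2-fold, and scatter widely in fresh cells, where 13 to 22 do.

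**Figure D3:**
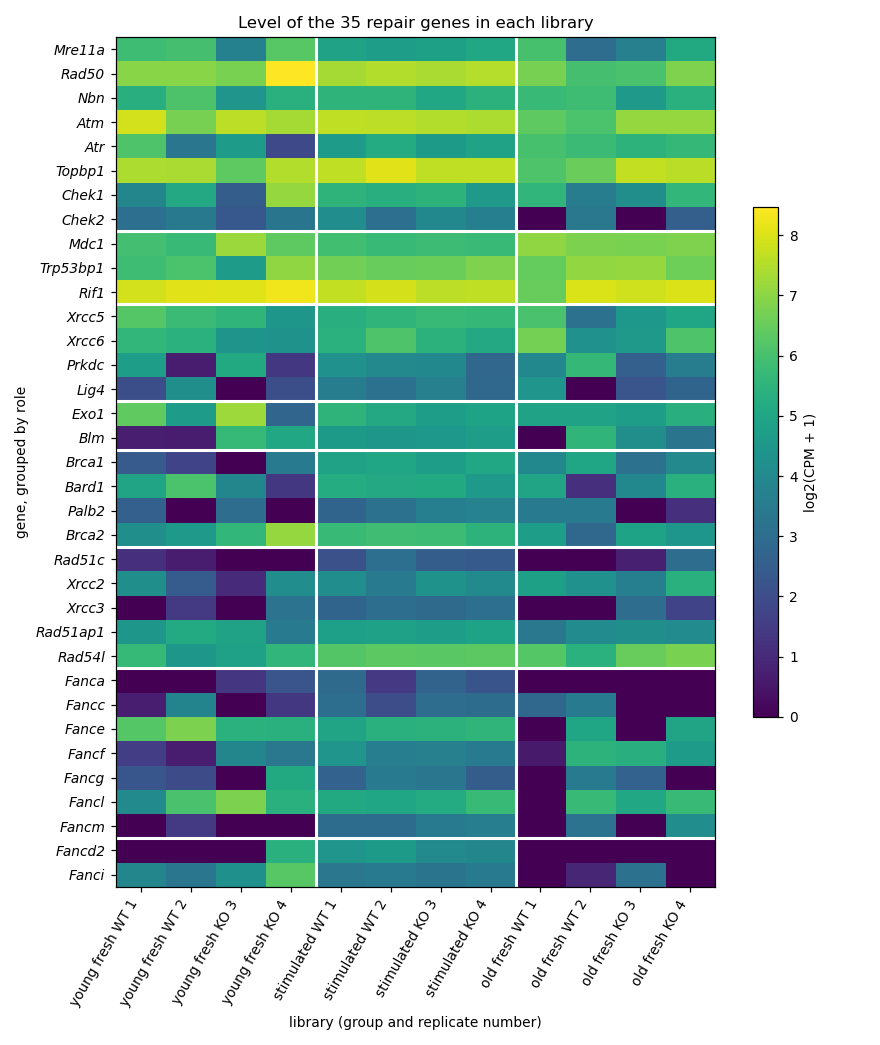
Level of each gene as log2(CPM + 1) (colour) in each library (columns), with rows grouped by role and white lines between roles and between young fresh, stimulated and old libraries. Dark cells, at or near 0, appear in fresh libraries and mostly in Rad51c, Xrcc3, Fanca, Fancm and Fancd2, and no stimulated library is at 0 for any gene.

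Cells stimulated with cytokine were compared with fresh cells of the same age. No library held cells cultured without cytokine, so cytokine, culture and time outside the animal cannot be told apart. Rad54l, Rad51c, Brca1, Fancm and Topbp1 lay higher in all 4 stimulated libraries than in all 4 young fresh ones, and 0 members lay lower. Over all 11548 genes 14.6% lay higher in this way and 5.16% lower, so the share of members was close to that of genes at large. No member passed edgeR's quasi-likelihood test at a Benjamini-Hochberg adjusted p under 0.05, a line that 2.81% of all genes passed (151 higher, 174 lower). Fanca, Fancd2 and Rad51c failed the count filter in fresh libraries and entered this fit through the stimulated ones, where they were high. That filter favours a positive value for these 3, so their values are given as a description. An unadjusted p under 0.05 was reached by Rad54l, Brca1, Fancm and Rad51c, 4 members with Rad51c included, against 17.7% of all genes. DESeq2 called 1 member (Brca1), where it called 7.54% of genes, while limma's voom, weighting groups separately, called 2 (Brca1 and Fancd2), where it called 6.17%. The log2 fold change was positive for 24 of 35 members, Fanca, Fancd2 and Rad51c included, and for 60.3% of all genes. The median was 0.51 for members and 0.27 for all genes.

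Among the recombination accessory genes all 5 fold changes were positive (median 1.09), with that of Rad51c favoured by the count filter. Rad54l, a motor protein that remodels DNA during recombination, stood at 49.4, 21.1, 28.0 and 46.5 CPM in young fresh WT 1, WT 2, KO 3 and KO 4 and at 72.4, 79.7, 77.1 and 80.0 CPM in the stimulated libraries in the same order. The lowest stimulated library was above the highest young fresh one, and the fresh values differed over 2-fold among themselves. The means were 77.3 ± 3.53 and 36.3 ± 13.9 CPM (SD, n = 4 each), a log2 fold change of 1.09 ± 0.42 (SE) that did not pass (adjusted p = 0.198 by edgeR). Old libraries, also fresh, had Rad54l at 41.6 to 106.9 CPM, so levels as high as the stimulated ones were seen in fresh cells too. Rad51c, which acts in homologous recombination, had 1.25, 0.570, 0 and 0 CPM in young fresh and 3.32, 7.58, 4.68 and 4.30 CPM in stimulated libraries. That is 3 counts in all against 63, a ratio of 11.95 (95% counting interval 3.91 to 59.5). Counting intervals, here and below, leave out the spread between libraries. The other members of this role, Xrcc2, Xrcc3 and Rad51ap1, overlapped between the conditions, and Xrcc3 was at 0 in 2 young fresh libraries and at 5.64 to 7.60 CPM in the stimulated ones.

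All 4 genes of the BRCA complexes had positive fold changes (median 1.16), and 1 did not overlap between conditions. Brca1, the ubiquitin ligase subunit that promotes resection and recombination, stood at 4.38, 2.28, 0 and 9.93 CPM in young fresh and at 28.6, 30.3, 25.3 and 32.7 CPM in stimulated libraries. Every stimulated library was above every young fresh one, with little spread among the former. The log2 fold change was 2.84 ± 1.18, which did not pass edgeR's test (adjusted p = 0.227) and did by DESeq2 (2.78, adjusted p = 0.0491) and voom (3.62, adjusted p = 0.0463). Without young fresh KO 4, which had the highest Brca1 of the young fresh libraries, edgeR gave 6.32 and adjusted p = 0.0365, and without each other library 2.35 to 3.11 and adjusted p = 0.248 to 0.576. In old libraries Brca1 stood at 14.6, 31.5, 7.86 and 14.7 CPM. Bard1, the partner of BRCA1, Palb2, which joins BRCA1 to BRCA2, and Brca2, a central mediator of recombination, gave fold changes of 0.71 ± 0.94, 1.60 ± 1.67 and 0.26 ± 0.58.

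Of the 9 Fanconi genes 5 had positive fold changes on stimulation, Fanca and Fancd2 among them, and 4 negative ones. Of the 9, 1 gene, Fancm, did not overlap between conditions. Fancm, the helicase that anchors the core complex to DNA, had 0, 1.71, 0 and 0 CPM in young fresh and 6.97, 6.92, 10.2 and 11.2 CPM in stimulated libraries. That is 3 against 113 counts, a ratio of 21.4 (95% counting interval 7.15 to 105.5, adjusted p = 0.246 by edgeR), and in old libraries it was at 0 in 2 and at 8.39 and 16.9 CPM in the others. Fancd2, the protein that the core complex modifies, was at 0 in 3 young fresh libraries, at 40.8 CPM in young fresh KO 4 and at 0 in all 4 old libraries. Its stimulated levels were 20.3, 23.4, 15.1 and 13.9 CPM, so 1 fresh library out of 8 had it and all 4 stimulated ones did. Within WT this is 132 counts against 0, at least 24.4-fold higher (floor of 3 counts over the group, adjusted p = 0.452 by edgeR and 0.0440 by voom). As Fancd2 was tested only because stimulated libraries had it, the voom call is no support for the difference. Fanca, a core subunit, likewise had 25 against 0 counts in WT, at least 4.62-fold higher. Fanci, the partner of FANCD2, went the other way in its fitted value (-1.29 ± 1.32), with 76.8 CPM in young fresh KO 4 and 8.54 to 17.8 CPM in the other 7 young libraries. The core subunits Fance (-0.65 ± 1.14), Fancl (-0.53 ± 0.96) and Fancg (-0.07 ± 1.87) also had negative values, and Fancc (1.344 ± 1.56) and Fancf (1.80 ± 1.20) positive ones. Fancg stood at 3.76, 2.85, 0 and 34.5 CPM in young fresh and at 4.63 to 9.88 CPM in stimulated libraries.

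Of the 8 break sensing and checkpoint genes, 6 had positive fold changes and their median was 0.06. Topbp1, which activates ATR, stood at 172.8, 168.2, 81.0 and 179.2 CPM in young fresh and at 198.5, 271.8, 198.8 and 199.3 CPM in stimulated libraries. The libraries did not overlap, yet the difference was small next to the spread (0.54 ± 0.27, adjusted p = 0.310 by edgeR). Atm stood at 104.9 to 236.6 CPM in young fresh and 170.5 to 200.9 CPM in stimulated cells, with a fold change of 0.09 ± 0.27 and a 95% interval of -0.48 to 0.66. Rad50 (0.02 ± 0.34, interval -0.71 to 0.75) and the adaptor Rif1 (-0.35 ± 0.27, interval -0.92 to 0.22) were the other members whose interval lay within 2-fold. The other adaptors differed in sign, with Mdc1, which binds marked histone at breaks, at -0.56 ± 0.32 and Trp53bp1, which holds back resection, at 0.51 ± 0.42. Leaving out young fresh KO 4 took Trp53bp1 to 1.36 and adjusted p = 0.0472 by edgeR.

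End joining genes showed no common direction. Xrcc6 and Xrcc5, which encode the Ku70 and Ku80 subunits that cap DNA ends, had fold changes of 0.63 ± 0.61 and -0.01 ± 0.63. Lig4, the ligase of this route, stood at 1.19 ± 1.59, and Prkdc, the kinase that Ku recruits, at -0.24 ± 1.20. The summed level of the 4 was 44.9 to 150.2 CPM in young fresh, 94.2 to 137.4 CPM in stimulated and 52.96 to 201.8 CPM in old libraries, so the stimulated range lay inside both fresh ranges.

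**Figure D4:**
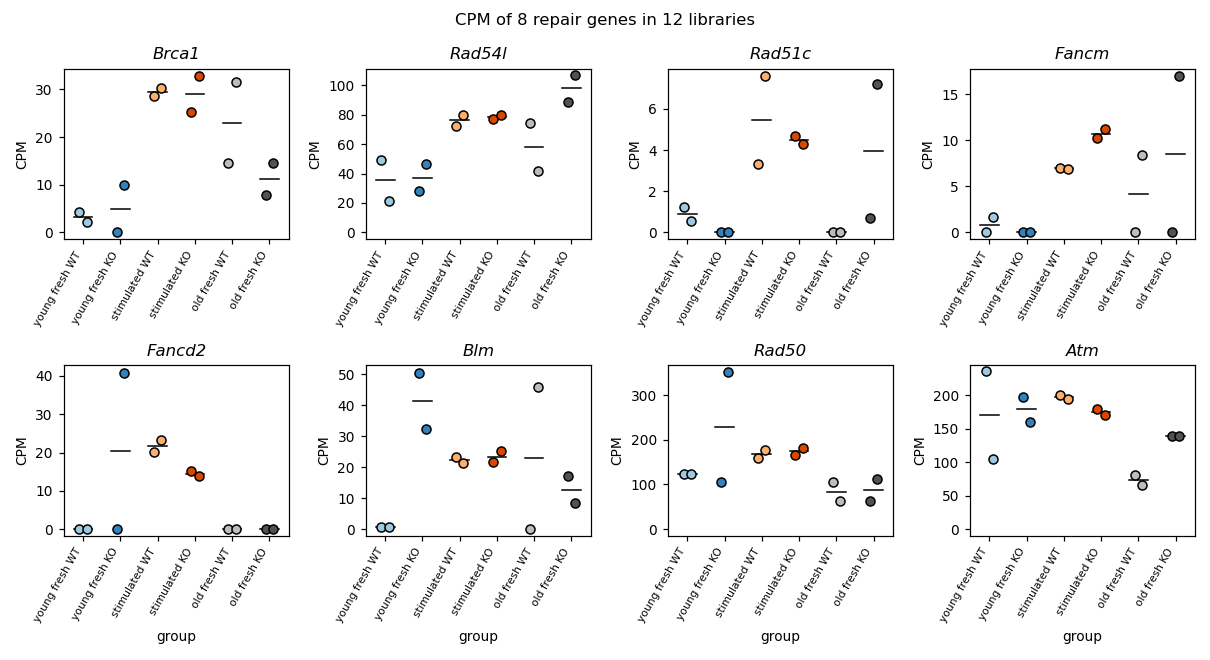
CPM of 8 genes in the 2 libraries of each group (points) with the group mean (line), on a linear axis that starts just below 0 for each gene. Brca1, Rad54l, Rad51c and Fancm are higher in all 4 stimulated libraries than in all 4 young fresh ones, Fancd2 is above 0 in the stimulated libraries and in 1 fresh one, and Rad50 and Atm overlap.

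Split by genotype, stimulated WT had 16 members higher and 3 lower without overlap, where 34.1% and 19% of all genes were. Stimulated KO had 13 higher and 4 lower, where 36.3% and 17% were. The 16 include Fanca, Fancd2 and Rad51c, and the 13 include Rad51c, genes tested only because stimulated libraries had them. Their values below are given as a description and are no support for a difference. With 2 libraries against 2, such separation is common among all genes, so these counts are read against those shares. No member passed edgeR's test in either genotype, against 0.797% of genes in WT and 0.649% in KO, and 2 members in each had an unadjusted p under 0.05, against 9.48% and 10.9% of genes. DESeq2 called 0 members in both, where it called 3.82% of genes in WT and 4.29% in KO. The voom fit called 1 in WT (Fancd2, with the limit just given) and 0 in KO, where it called 2.25% and 1.04% of genes. Fold changes were positive for 21 of 35 members in WT and 20 in KO, against 54.2% and 56.3% of genes. Rad54l, Brca1, Topbp1, Rad51c, Fancm and Palb2 lay higher without overlap in both genotypes. In WT the smallest p-values belonged to Fancd2, to Blm and to Fanca. Blm had 0.626 and 0.570 CPM in young fresh WT and 23.2 and 21.4 CPM after stimulation, which is 2 against 135 counts (ratio 37.4, 95% counting interval 10.2 to 312). In KO they belonged to Mdc1 (145.7 and 82.0 CPM in young fresh KO, 54.3 and 52.6 CPM in stimulated KO, -1.09 ± 0.45, adjusted p = 0.410 by edgeR), to Rad51c (0 against 30 counts, at least 5.83-fold higher) and to Fancm (0 against 71 counts, at least 13.8-fold higher).

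Blm was the member that lay higher in WT and lower in KO after stimulation, and Fance and Xrcc5 lay lower in WT and higher in KO. The interaction of genotype with stimulation was tested for every gene. For Blm, at 50.4 and 32.4 CPM in young fresh KO and 21.8 and 25.1 CPM in stimulated KO, it was -5.95 ± 2.58, which did not pass (adjusted p = 0.885 by edgeR). For Fancd2 the counts were 132 against 0 in WT and 97 against 78 in KO, with the 78 in a single library (adjusted p = 0.885 by edgeR). Brca2 had the next smallest p-value, at -2.38 ± 1.17 (adjusted p = 0.885), with 17.5 and 22.2 CPM in young fresh WT, 47.4 and 138.5 CPM in young fresh KO and 43.0 to 57.7 CPM in stimulated cells. Of all genes 0% passed edgeR's test for this interaction, and 2 members had an unadjusted p under 0.05 against 5% of genes. Positive values numbered 16 of 35, against 51.9% of genes. DESeq2 and voom called 0 members, where they called 0.321% and 0% of genes.

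Genes that replicate DNA and drive mitosis were measured beside these, since homologous recombination runs with the cycle. The 18 G2/M genes summed to 2663 to 3555 CPM in stimulated libraries and 1549 to 1802 CPM in young fresh ones, without overlap, and Plk1, Birc5 and Top2a of them rose. The 25 G1/S and replication genes summed to 3273 to 4125 and 2767 to 3617 CPM, and edgeR's test called 2 of them, E2f1 and Uhrf1, higher. Both calls rested on young fresh KO. E2f1 stood there at 0 in both libraries, and at 44.4 and 17.1 CPM in young fresh WT against 36.2 to 53.2 CPM in stimulated cells. Uhrf1 stood at 3.57 and 1.57 CPM in young fresh KO and 40.7 and 21.1 CPM in young fresh WT, against 34.7 to 63.3 CPM. Within WT neither passed (adjusted p = 0.970 and 0.791 by edgeR), and the interaction with genotype did not pass either (adjusted p = 0.415 and 0.885). Their part in the values of the repair genes was not tested. The 9 monocyte and neutrophil genes summed to 4406 to 8811 CPM in young fresh and 1627 to 2864 CPM in stimulated libraries, with S100a8 and S100a9 lower and Mpo and Elane higher by edgeR's test. The 5 mast cell and basophil genes summed to 0 to 14.6 and 36.4 to 81.0 CPM, and the 8 B cell genes to 0.626 to 21.9 and 22.0 to 199.7 CPM, with Ms4a1 at 0 in every library. T and NK genes summed to 14.3 to 34.6 and 112.4 to 230.8 CPM, with Cd3e, Cd4 and Cd8a at 0 in every library. The part of these other cell types in the results was not tested.

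Other genes of the same pathways were counted over whole lists. Of 21 other homologous recombination genes 1 rose on stimulation and 0 fell, and 12 of 21 fold changes were positive (median 0.06). The one was Rpa2, a subunit of the protein that coats single-stranded DNA. It stood at 199.7, 57.0, 147.2 and 143.7 CPM in young fresh libraries and at 450.9, 530.5, 364.6 and 305.1 CPM in stimulated ones. The log2 fold change was 1.57 ± 0.33 (adjusted p = 0.0185 by edgeR), and the call was lost without young fresh KO 3 or without KO 4. Of 15 other Fanconi and crosslink repair genes tested, 7 other end joining genes and 18 other checkpoint and chromatin response genes, 0 passed edgeR's test. In each of these lists 2 had an unadjusted p under 0.05. Of all genes 2.81% passed and 17.7% had such an unadjusted p. Among 18 targets of p53, the factor that ATM and CHEK2 signal to, Ccng1 fell (-1.26 ± 0.29, adjusted p = 0.0274), from 81.0 to 173.7 CPM in young fresh to 50.5 to 61.0 CPM in stimulated libraries. Its call was lost without any 1 of 6 libraries: young fresh WT 1, young fresh KO 3 and each stimulated library.

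Old and young fresh cells were compared to see how age bears on these genes. Rad50, Fanci and Atm had the smallest p-values and lower values in old cells, and Fanci and Fance lay lower in all 4 old libraries than in all 4 young fresh ones. The 0 members that lay higher and 2 that lay lower compare with 4.83% and 3.6% of the 10680 genes tested. No member passed edgeR's test, which called 2.72% of genes (188 higher, 103 lower), and 3 of the 32 members tested had an unadjusted p under 0.05, against 13.2% of genes. DESeq2 called 1 member (Fanci), where it called 8.76% of genes, and voom 0, where it called 2.2%. Positive fold changes numbered 14 of 32, against 51.8% of all genes, and the median was -0.33 for members and 0.05 for all genes. Fanca, Fancd2 and Rad51c were too low in fresh cells for the test.

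Rad50, the clamp of the break sensing complex, stood at 123.9, 123.7, 106.4 and 352.7 CPM in young fresh libraries and at 105.3, 62.0, 64.1 and 111.9 CPM in old ones. Young fresh KO 4 stood far above the rest, and old KO 4 was above young fresh KO 3, so the groups overlapped. The log2 fold change was -0.98 ± 0.41 (adjusted p = 0.299 by edgeR), and it rested on the young fresh KO libraries. Without young fresh KO 4 it was -0.43 (adjusted p = 0.817 by edgeR), and without KO 3, which left KO 4 alone in its group, -1.29 (adjusted p = 0.0363). Fanci stood at 13.8, 9.12, 17.8 and 76.8 CPM in young fresh and at 0, 0.899, 8.09 and 0 CPM in old libraries. These did not overlap, and the fold change was -4.06 ± 1.79 (adjusted p = 0.330 by edgeR, 0.0378 by DESeq2). Atm, the kinase that starts the response to breaks, stood at 236.6, 104.9, 197.1 and 160.9 CPM in young fresh and 80.9, 66.5, 138.8 and 139.2 CPM in old libraries. It was lower without overlap within each genotype but not across them, and the fold change was -0.80 ± 0.36 (adjusted p = 0.339 by edgeR). Without young fresh WT 1, the library that stood apart, it was -0.44 (adjusted p = 0.896 by edgeR).

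The Fanconi core complex had 2 of 6 positive fold changes with age (median -0.90), and Fance and Fancl depended on single libraries. Fance stood at 73.9, 109.5, 41.8 and 40.2 CPM in young fresh libraries and at 0, 30.9, 0 and 29.5 CPM in old ones, so all old values were lower and those of 1 library per genotype were 0 (-2.03 ± 1.25, adjusted p = 0.534 by edgeR). Without old WT 2 edgeR gave adjusted p = 0.00172 for Fance and 0.00648 for Fancl, and without old KO 4 it gave 0.00287 for Fance. Fancf had 0.530 to 43.7 CPM in old and 0.570 to 13.8 CPM in young fresh libraries (2.78 ± 1.55, adjusted p = 0.477 by edgeR). Fancd2 had 78 counts in young fresh libraries, all of them in KO 4, and 0 in old ones, which is at least 58.5-fold lower as a group and rests on that library. Fancm went the other way, with 3 counts in young fresh and 110 in old libraries, the latter in 2 of the 4.

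Other roles showed values of either sign in age. Rad54l stood at 77.9 ± 27.6 CPM in old and 36.3 ± 13.9 CPM in young fresh libraries (n = 4 each, 1.04 ± 0.62, adjusted p = 0.506 by edgeR). Brca2 stood at 20.3 ± 9.95 and 56.4 ± 56.3 CPM, and Brca1 at 17.1 ± 10.1 and 4.15 ± 4.25 CPM. The adaptors Mdc1 (0.51 ± 0.41) and Trp53bp1 (0.72 ± 0.50) had positive values and Rif1 a negative one (-0.41 ± 0.31). Rif1 stood at 88.8 CPM in old WT 1 and at 227.8 to 308.3 CPM in the other 7 fresh libraries. Of the end joining genes 3 of 4 were positive, with SEs of 0.79 to 2.21. The widest values belonged to genes listed at 0 in several libraries, Fancm, Chek2, Fancg, Palb2, Lig4 and Xrcc3 among them.

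Within genotypes, 5 members lay higher and 7 lower without overlap in old WT, where 20.1% and 18.8% of all genes did, and 7 higher and 6 lower in old KO, where 21.3% and 17.2% did. No member passed edgeR's test in either, against 0.805% and 0.871% of genes, and 2 and 1 members had an unadjusted p under 0.05, against 8.14% and 8.74%. DESeq2 called 0 members in both, where it called 5.5% of genes in WT and 6.16% in KO. The voom fit also called 0 members, against 0.598% and 0.364% of genes. Fold changes were positive for 16 of 32 members in WT and 13 in KO, against 49.7% and 52.2% of genes. In WT the smallest p-values belonged to Atm (-1.23 ± 0.51, adjusted p = 0.499 by edgeR), Topbp1 (-1.11 ± 0.50, adjusted p = 0.567) and Blm. Blm had 2 counts in young fresh WT and 153 in old WT, all 153 of them in replicate 2, a ratio of 36.1. Its 95% counting interval of 9.82 to 300.5 leaves out the spread between libraries, and the fitted log2 interval was -0.06 to 10.35. Without old WT 2 the fitted value was -3.89. In KO they belonged to Rad50 (-1.38 ± 0.59, adjusted p = 0.502), Rad54l (1.39 ± 0.88) and Brca2 (-1.90 ± 1.20). Atm, Fanci and Fance lay lower without overlap in both genotypes, and Topbp1 and Bard1 lower in WT and higher in KO.

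The interaction of genotype with age was 1.72 ± 0.70 for Topbp1, which did not pass (adjusted p = 0.902 by edgeR), and -6.84 for Blm (adjusted p = 0.902), which rests on 2 counts in young fresh WT and turned to 2.19 without old WT 2. Topbp1 stood at 68.9 and 91.1 CPM in old WT and 204.0 and 193.5 CPM in old KO, against 172.8 and 168.2 CPM in young fresh WT and 81.0 and 179.2 CPM in young fresh KO. Old WT was thus below the 3 other fresh groups except for young fresh KO 3, which lay between its libraries. Bard1 came next (3.51 ± 2.44, adjusted p = 0.914). Of all genes 0% passed, and 2 members of 32 had an unadjusted p under 0.05, against 5.5% of genes. Positive values numbered 16 of 32, against 52.3% of genes. DESeq2 and voom called 0 members, where they called 1.13% and 0% of genes.

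Related genes did pass in age, where 2.72% of all genes did. Smc1a and Smc3, the core of cohesin, which holds sister chromatids together for repair, fell with age. Smc1a went from 355.5 to 492.5 CPM in young fresh to 114.3 to 205.4 CPM in old libraries (-1.64 ± 0.26, adjusted p = 0.000693 by edgeR). Smc3 went from 257.3 to 549.0 CPM to 71.5 to 116.7 CPM (-2.03 ± 0.32, adjusted p = 0.000733). They were the 2 of 17 other checkpoint and chromatin response genes that changed, and 4 of the 17 fold changes were positive (median -0.46). Sfr1, whose product acts in recombination with its partner SWI5, rose from 371.7 to 476.5 CPM to 757.4 to 938.8 CPM (1.01 ± 0.20, adjusted p = 0.00585), the 1 of 20 other homologous recombination genes to do so. Among G2/M genes Mki67 rose (1.63 ± 0.40) and Top2a fell (-0.99 ± 0.25). The sum of all 18 G2/M genes was 1135 to 2130 CPM in old and 1549 to 1802 CPM in young fresh libraries.

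Marker genes of other lineages moved with age as well. Platelet genes summed to 447.0 to 2457 CPM in old and 273.6 to 606.1 CPM in young fresh libraries, with Pf4 higher of 6. Erythroid genes summed to 228.3 to 759.8 and 212.8 to 317.5 CPM, with Car1 higher of 7, and myeloid genes to 418.8 to 2921 and 4406 to 8811 CPM, with S100a8 and S100a9 lower of 9. Their part in the results on repair genes was not tested.

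Genotypes were compared within each condition, most precisely in stimulated cells. There, KO and WT libraries gave close values for the repair genes, with fold changes from -0.67 (Prkdc) to 0.82 (Palb2) and 17 positive to 18 negative, where 50% of all genes were positive. The median was -0.01 for members and 0.00 for all 10494 genes tested. No member passed edgeR's test, which called 1.23% of genes (80 higher, 49 lower), and 0 had an unadjusted p under 0.05, against 10.9% of genes. DESeq2 and voom also called 0, where they called 1.23% and 1.97% of genes. Without overlap lay 5 members higher and 6 lower in KO, against 19.5% and 22.6% of genes.

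For 18 of the 35 the 95% interval of the difference lay within 2-fold in either direction, so a larger difference was outside it for Atm, Atr, Topbp1, Chek1, Rad50, Nbn, Mre11a, Brca1, Bard1, Brca2, Blm, Rad54l and Rad51ap1. The same held for Fance, Xrcc5, Mdc1, Trp53bp1 and Rif1. The median half-width was 0.59 on the log2 scale, from 0.30 to 1.60. Brca1 stood at 28.6 and 30.3 CPM in WT and 25.3 and 32.7 CPM in KO, a fold change of 0.00 ± 0.28 (interval -0.59 to 0.59). Atm stood at 200.9 and 194.7 CPM in WT and 179.6 and 170.5 CPM in KO, which did not overlap and differed by -0.15 ± 0.14. For the other 17 a 2-fold difference lay inside the interval, and a p that misses the threshold does not show that they were alike.

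The 3 smallest p-values in stimulated cells belonged to Xrcc6, Exo1 and Fancl. Xrcc6 stood at 41.2 and 68.5 CPM in WT and 42.4 and 33.4 CPM in KO, which overlapped (-0.51 ± 0.27, adjusted p = 0.531 by edgeR). Exo1 stood at 44.8 and 33.6 CPM in WT and 25.6 and 29.4 CPM in KO, all lower in KO (-0.49 ± 0.26, adjusted p = 0.546). Fancl stood at 34.2 and 31.0 CPM in WT and 35.8 and 51.9 CPM in KO, all higher in KO (0.45 ± 0.26, adjusted p = 0.580). The Fanconi core complex had 5 of 7 positive values, and Fance, Fancl and Fancm lay higher without overlap, while Fancd2 lay lower (-0.56 ± 0.33). Beside these, Top2a fell in KO (-0.51 ± 0.12, adjusted p = 0.0443), the sum of G2/M genes was 2681 and 2663 CPM in KO and 3305 and 3555 CPM in WT, and the B cell genes Vpreb1 and Ebf1 were lower by edgeR's test, with a part in these values that was not tested.

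**Figure D5:**
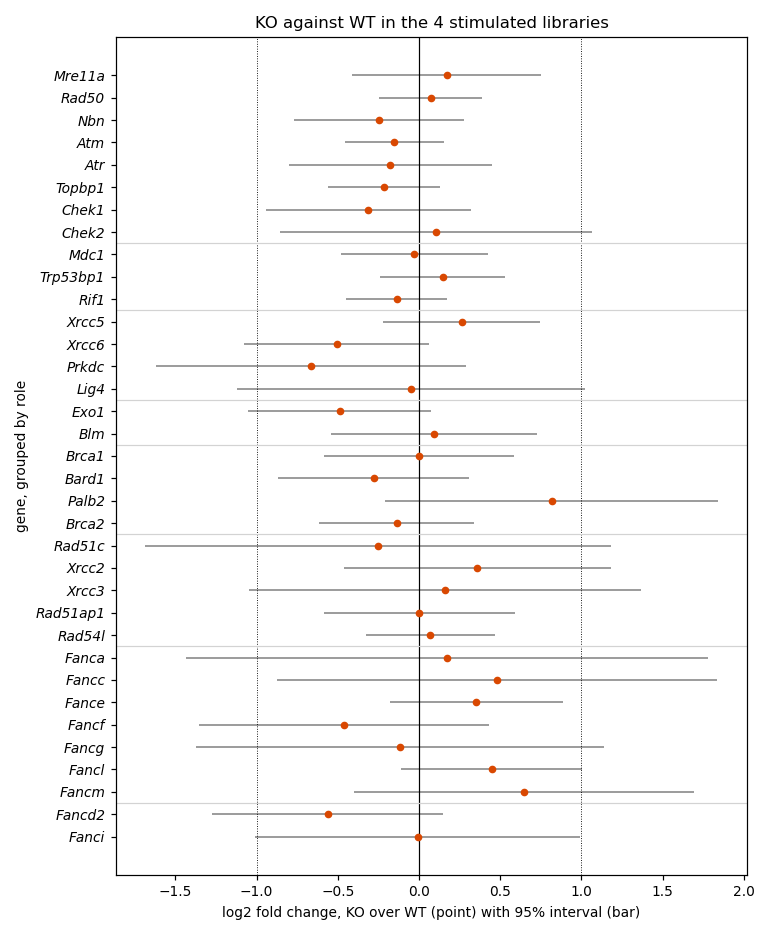
Log2 fold change of each gene in stimulated KO over stimulated WT (point) with its 95% interval (bar) from the fit of the 4 stimulated libraries, with rows grouped by role, a solid line at 0 and dotted lines at 2-fold. Every interval includes 0, and 18 of the 35 lie between the dotted lines.

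In young fresh cells the KO comparison could resolve little. The median half-width of the interval was 3.31 on the log2 scale, and 0 of the 32 members tested had an interval within 2-fold. Of all genes 0% passed edgeR's test, and 1 member, Blm, had an unadjusted p under 0.05, against 4.86% of genes. DESeq2 and voom called 0 members, where they called 1.63% and 0% of genes. Blm had 0.626 and 0.570 CPM in WT and 50.4 and 32.4 CPM in KO, which is 2 against 161 counts (ratio 69.6, 95% counting interval 19.0 to 579.5, adjusted p = 0.961 by edgeR). Brca2 lay higher in both KO libraries (2.21 ± 1.22, adjusted p = 0.961), as did Mdc1 at 145.7 and 82.0 against 60.7 and 52.4 CPM (1.00 ± 0.59). Positive fold changes numbered 18 of 32, against 46.8% of genes. Without overlap lay 5 members higher and 4 lower, against 14.7% and 17.3% of genes, and the median fold change was 0.11 for members and -0.03 for all genes. The lower ones were Bard1, Xrcc6, Xrcc5 and Fance.

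In old cells Topbp1 had the smallest p-value of the members, at 68.9 and 91.1 CPM in WT and 204.0 and 193.5 CPM in KO (1.33 ± 0.50, unadjusted p = 0.0154 and adjusted p = 1 by edgeR). Atm stood second, at 80.9 and 66.5 CPM in WT and 138.8 and 139.2 CPM in KO, with both KO libraries above both WT ones (0.93 ± 0.50, adjusted p = 1). Fancc, a core subunit, had 56 counts in WT and 0 in KO, at least 24.1-fold lower (adjusted p = 1). Of all genes 0% passed edgeR's test, and Topbp1 alone of the members had an unadjusted p under 0.05, against 4.01% of genes. DESeq2 and voom called 0 members, where they called 1.14% and 0.0173% of genes. Positive fold changes numbered 17 of 32, against 50% of genes. Without overlap lay 5 members higher and 5 lower, against 16.5% and 16.7% of genes, and the median fold change was 0.09 for members and 0.00 for all genes. Without old WT 2, edgeR called Fancl (adjusted p = 0.0418), which was at 0 in the other old WT library.

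Reads of 6 members could be shared with another gene. In the GENCODE M21 annotation, the last 500 exonic bases of Atr, Rad54l, Fanca, Fancl, Fancd2 and Fanci lie over a gene on the opposite strand (Gm16794, Lrrc41, Zfp276, Vrk2, Fancd2os and Polg), and those of 0 members lie over one on their own strand. The strand setting of the counting is not given in the sources used here, so for these 6 the reads of the pair cannot be told apart.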

How the data were processed

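Transcripts of 12 libraries were counted by 3′ tags (QuantSeq FWD, which reads the end of a transcript, so values were not divided by length). The authors deposited raw read counts per gene symbol; per the submitters' processing notes these came from HISAT2 2.2.1, mm10 and HTSeq 0.9.1, and DESeq2 1.34.0 was also named. Annotation, strand setting and read filters are not given in the sources used here.

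The members, the gene lists and the comparisons were chosen with earlier results of these data known. Fits were made with edgeR 4.0.16 under R 4.3.3 (TMM scaling, filterByExpr at a count of 10 and a total of 15, quasi-likelihood test, Benjamini-Hochberg adjustment over all genes tested). Comparisons with stimulation used all 12 libraries (11548 genes), those among fresh cells the 8 fresh libraries (10680 genes), and KO against WT after stimulation its 4 libraries (10494 genes), because fresh libraries spread far more between replicates. Averaged comparisons weigh both genotypes equally. CPM used TMM sizes. A group at 0 was bounded with 3 counts over the group, and 1 to 3 counts gave a ratio with an exact conditional 95% interval, both for counting error only. The tests were checked on simulated data.

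Where no member passed, the 3 with the smallest p were given per comparison, and from other lists up to 3 genes where any passed. Other values were chosen to account for all members, after they were seen. Alternatives were RLE scaling, no filter, DESeq2 1.42.0, limma 3.58.1 voom with a weight per group, other sets of libraries, a replicate block and each library left out. Deviations of same-numbered libraries correlated at -0.01 to 0.01 over genes, so the replicate numbers showed no pairing. Fresh libraries spread widely, so this does not show that the samples were unpaired. Motifs were searched in RefSeq promoters (GRCm38.p6), and neighbours were read from GENCODE M21. Values of 1 gene of the other lists are not reported here.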

Additional observations from a re-analysis of the deposited data

How the results depend on the processing

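The count of members called was 0 in all 11 comparisons. EdgeR called 0% to 2.81% of all genes in them. The share was 0% in both interactions and in KO against WT of young fresh and of old cells. Where that share was near 0%, a count of 0 among so few members was likely in advance. With genotypes averaged it was 2.81% on stimulation and 2.72% in age, where 0 was not assured. With so few members a count of 0 still tells little about these genes. Under alternatives that kept every library 63 of 67 counts gave 0 again, with the same limit. The others were DESeq2, with 1 member in stimulated against young fresh cells (Brca1) and 1 in old against young fresh cells (Fanci), and voom with a weight per group, with 2 in stimulated against young fresh cells (Brca1 and Fancd2) and 1 within WT (Fancd2). Fancd2 was tested only because stimulated libraries had it, so its calls are no support for a difference. With each library left out, 53 of 60 counts were 0. The ranges were 0 to 2 in stimulated against young fresh cells, 0 to 2 in old against young fresh cells, 0 to 2 in old against young fresh WT, 0 to 1 in old against young fresh KO and 0 to 1 in KO against WT of old cells. With 1 library left in a group, it was assumed to vary like the others. Of 379 values of named members, 377 kept their direction, and 6 passed the threshold under an alternative only. The 2 that turned were those of Blm without old WT 2: leaving out libraries in turn gave -3.89 to 6.16 in old against young fresh WT and -7.85 to 2.19 in the interaction of genotype with age. With a replicate block the count of members called stayed at 0 in each of the 8 comparisons it could be fitted to, and Brca1 stood at 3.29 on stimulation. The numbers showed no pairing, which does not show that the samples were unpaired. No replicate block could be fitted between genotypes, which share no number. RLE scaling left the medians at 0.45 for members and 0.20 for all genes on stimulation. Depth limits the members near 0: 3 counts are 1.53 to 1.88 CPM in a young fresh library. Within fresh groups the median half-widths were 3.27 to 3.31 on the log2 scale. For a typical member even a difference over 8-fold could thus go undetected.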
